A study of Rattus norvegicus with 10 samples.

Results

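The genes described here are the rat's major histocompatibility complex (MHC) genes, whose symbols begin with RT1, and 7 genes that load or regulate their products: B2m, Tap1, Tap2, Tapbp, Nlrc5, Cd74 and Ciita. A gene was taken where the platform annotation gave a transcript cluster, the array's unit of measurement, that symbol and no other. Where a gene had several clusters, the brightest on average was used. This gave 41 genes out of 22098 with a cluster of 1 symbol: 23 class I genes, 11 class II genes and 7 accessory genes. Of the class I genes, 2 were classical (RT1-A and RT1-A1) and 21 carried other RT1 symbols. The 41 genes had 48 such clusters among the 68842 on the array, and 6 further clusters carried several RT1 symbols and were kept apart.

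RNA came from exosomes, small vesicles released by cells, in the plasma of 10 male Wistar rats, an outbred strain. Remote ischemic conditioning (RIC), repeated short stops of the blood supply to a remote site, was applied to 5 of them in 4 rounds of 5 min ischemia and 5 min reperfusion, and 5 healthy rats served as controls. The treatment text stands on all 10 labels and was read as describing the RIC rats alone. The sources used here give neither the site of ischemia nor the time of sampling, the rats' age or their RT1 haplotypes. Venous blood (10 mL per rat, in EDTA) was centrifuged in steps up to ultracentrifugation to collect the exosomes, and their RNA was read on an Affymetrix array, 1 per rat.

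MHC class I molecules are a heavy chain paired with beta-2 microglobulin, encoded by B2m, and present peptides from inside the cell to cytotoxic T cells. The peptides are made by the proteasome, pumped into the endoplasmic reticulum by the transporter of Tap1 and Tap2, and loaded with the help of tapasin, the product of Tapbp. MHC class II molecules, pairs of an alpha and a beta chain found mainly on B cells, dendritic cells and macrophages, present peptides from endocytosed proteins to helper T cells. The invariant chain, encoded by Cd74, guards their groove until DM exchanges its remnant for a peptide, and DO restrains DM. NLRC5 is the transcriptional activator of class I genes, and CIITA is that of class II genes, acting through factors bound to the X and Y boxes of their promoters.

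Promoters of 7 genes are shown first, because they show the letters that class I, class II and loading genes carry in varying shares. Each runs 5′ to 3′ along the gene from 250 bases before its start to 50 after, from RefSeq on the GRCr8 assembly, and such a promoter was at hand for 34 of the 41 genes. Capitals mark matches, on either strand, to the core of the Y box (CCAAT), of the X1 box (AGCAAC), of the interferon-stimulated response element (GAAA, any 2 bases, GAAA) and of the kappaB site (GGGANTCC). No matches to different motifs overlapped in these genes, and in RT1-A1 and RT1-CE10 the kappaB letters match on both strands over the same bases. The windows lie at chr3:129549080-129549379, plus strand (B2m), chr20:4668494-4668793, minus strand (Tap1), chr20:4906959-4907258, plus strand (RT1-A1), chr20:3384930-3385229, minus strand (RT1-CE10), chr20:4515165-4515464, plus strand (RT1-Da), chr20:4560113-4560412, minus strand (RT1-Db1) and chr18:56526956-56527255, plus strand (Cd74).
B2m: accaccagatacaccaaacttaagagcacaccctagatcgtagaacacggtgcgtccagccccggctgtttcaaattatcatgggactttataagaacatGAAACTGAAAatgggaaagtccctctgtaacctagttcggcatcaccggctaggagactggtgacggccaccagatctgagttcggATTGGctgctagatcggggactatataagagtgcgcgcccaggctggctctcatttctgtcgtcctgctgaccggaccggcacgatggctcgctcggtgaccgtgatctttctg
Tap1: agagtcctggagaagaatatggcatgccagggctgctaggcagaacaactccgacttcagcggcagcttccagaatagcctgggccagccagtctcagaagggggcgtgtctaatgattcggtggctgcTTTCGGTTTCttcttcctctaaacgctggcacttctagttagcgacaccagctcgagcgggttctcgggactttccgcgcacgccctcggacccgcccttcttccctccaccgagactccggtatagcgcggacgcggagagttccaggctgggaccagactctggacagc
RT1-A1: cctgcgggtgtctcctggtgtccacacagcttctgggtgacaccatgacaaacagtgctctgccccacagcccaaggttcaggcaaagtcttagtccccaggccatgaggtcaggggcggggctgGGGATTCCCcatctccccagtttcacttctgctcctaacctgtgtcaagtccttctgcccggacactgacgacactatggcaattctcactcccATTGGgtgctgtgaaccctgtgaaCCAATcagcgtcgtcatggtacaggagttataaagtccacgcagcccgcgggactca
RT1-CE10: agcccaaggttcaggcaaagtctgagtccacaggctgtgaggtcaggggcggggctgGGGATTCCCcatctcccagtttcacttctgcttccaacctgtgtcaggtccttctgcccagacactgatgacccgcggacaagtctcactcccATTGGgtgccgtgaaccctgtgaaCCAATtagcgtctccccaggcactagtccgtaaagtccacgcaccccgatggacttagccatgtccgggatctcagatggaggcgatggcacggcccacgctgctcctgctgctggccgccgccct
RT1-Da: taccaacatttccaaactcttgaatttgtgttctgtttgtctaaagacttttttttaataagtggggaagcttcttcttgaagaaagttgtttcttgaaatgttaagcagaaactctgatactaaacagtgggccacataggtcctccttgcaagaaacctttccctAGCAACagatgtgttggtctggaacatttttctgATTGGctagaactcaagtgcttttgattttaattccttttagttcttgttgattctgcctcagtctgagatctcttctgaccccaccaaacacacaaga
RT1-Db1: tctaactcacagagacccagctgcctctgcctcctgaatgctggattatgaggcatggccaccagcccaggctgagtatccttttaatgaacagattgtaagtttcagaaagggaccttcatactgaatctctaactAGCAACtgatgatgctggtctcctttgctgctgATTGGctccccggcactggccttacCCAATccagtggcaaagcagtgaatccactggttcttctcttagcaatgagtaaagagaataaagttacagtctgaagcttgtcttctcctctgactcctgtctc
Cd74: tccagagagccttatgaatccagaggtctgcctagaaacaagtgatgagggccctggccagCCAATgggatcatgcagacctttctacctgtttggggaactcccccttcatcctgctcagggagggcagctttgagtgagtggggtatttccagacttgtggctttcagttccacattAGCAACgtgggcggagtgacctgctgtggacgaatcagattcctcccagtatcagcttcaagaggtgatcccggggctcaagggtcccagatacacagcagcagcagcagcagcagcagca

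The Y box core was present in all 9 class II promoters at hand and in 10 of the 11 of class I genes above the array background described next, against 37.7% of all 27457 promoters of the same length. The X1 core was found in 6 of the 9 class II promoters, against 14.7% of all. In those 6, RT1-Da, RT1-Db1, RT1-Db2, RT1-DOa, RT1-DOb and RT1-Ha, an inverted Y core followed the X1 core after 25 to 28 bases. That arrangement, with the spacing taken from these genes, was found in 11 promoters of the whole table (0.0401%), and the 6 class II genes were among them. The Cd74 promoter held both cores in the other order. The response element core was present in the promoters of B2m, Tap1, Tap2 and Tapbp, which is 4 of 5 accessory promoters, in 3 of the 11 class I promoters above background (RT1-N3, RT1-S2 and RT1-S3) and in 3.77% of all. The kappaB core was found in 5 of 11 promoters of class I genes above background, all of the RT1-A1 and RT1-CE group, in 2 of 9 of class I genes at background (RT1-M1-5 and RT1-M5), in 1 of 9 class II promoters (RT1-Db2) and in 4.25% of all. Those class I promoters resemble one another and are not independent: in pairwise alignments RT1-A1 shared 82.3% of its positions with RT1-CE13 and 54.6% with RT1-CE10, and RT1-CE10 shared 82.7% with RT1-CE4. A match is a description of letters and not evidence of a bound factor.

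Values are log2 signal, given as mean ± SD over 5 rats, and differences are RIC minus control on the log2 scale. As a measure of background, 1449 clusters of odorant and pheromone receptors, genes of sensory neurons, had a median of 4.01, and their 95th percentile of 4.38 is called background below. Array medians lay between 4.05 and 4.23, and 1211 clusters stood on all arrays at 19.93, the highest value of the table. Control samples 2 and 1 lay farthest out on the first and second principal component, at 65.3 and 52.2. A passage below gives the differences without both. The first component, with 24.5% of the variance, held the groups apart. Controls lay from 2.7 to 65.3 on it and RIC rats from -40.6 to -9.0, and the cause was not tested. Platelet and red cell genes marked the preparation: all 7 measured platelet markers and all 5 measured erythroid markers were above background. The platelet genes Pf4, Tubb1 and Clec1b and the erythroid gene Hba-a1 stood at 19.93 on every array, as did the exosome genes Cd9 and Sdcbp. The other 5 of 7 exosome genes were all lower on average in RIC, beside 60.7% of all varying clusters above background. Among them, Cd81 measured 6.04 in controls and 5.57 in RIC rats (unadjusted limma p 0.00869) and Tsg101 7.43 and 7.10 (unadjusted limma p 0.0172). Of all clusters above background, 7.33% were lower at an unadjusted p under 0.05. None of the exosome genes passed limma's adjusted test. In such bulk samples, fewer vesicles from a cell type and less RNA per vesicle cannot be told apart. Each rat gave 1 sample, so a p-value reflects the spread among these 10 animals.

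MHC RNA was present in the exosomes of both groups, and no MHC or accessory gene passed the adjusted test between RIC and control rats. Of the 41 genes, 23 had a mean above background: 12 class I genes, 8 class II genes and, of the accessory genes, B2m, Tapbp and Cd74. In limma's moderated test, 0 of the 41 genes passed a Benjamini-Hochberg adjusted p of 0.05 (lowest adjusted p 0.378), against 0% of all 68842 clusters (lowest adjusted p 0.302). At an unadjusted p under 0.05 there were 5 genes, all higher in RIC, which is 12.2% of the 41 against 11.1% of all clusters, or 7.97% for calls in that direction. Those shares are close to the background. Of the 5, 1 was among the 23 genes above background, RT1-N3, where 3.95% of all such clusters were called higher and 7.33% lower. The other 4, RT1-M2, RT1-M10-1, RT1-Db1 and Tap1, were at or below it, where 9.92% were called higher and 1.14% lower. No gene of the 41 was called lower, against 3.17% of all clusters. In each of the 41 genes the groups overlapped, while they were apart in 1.74% of all clusters, 1.81% of those above background and 1.71% of the rest.

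**Figure D1:**
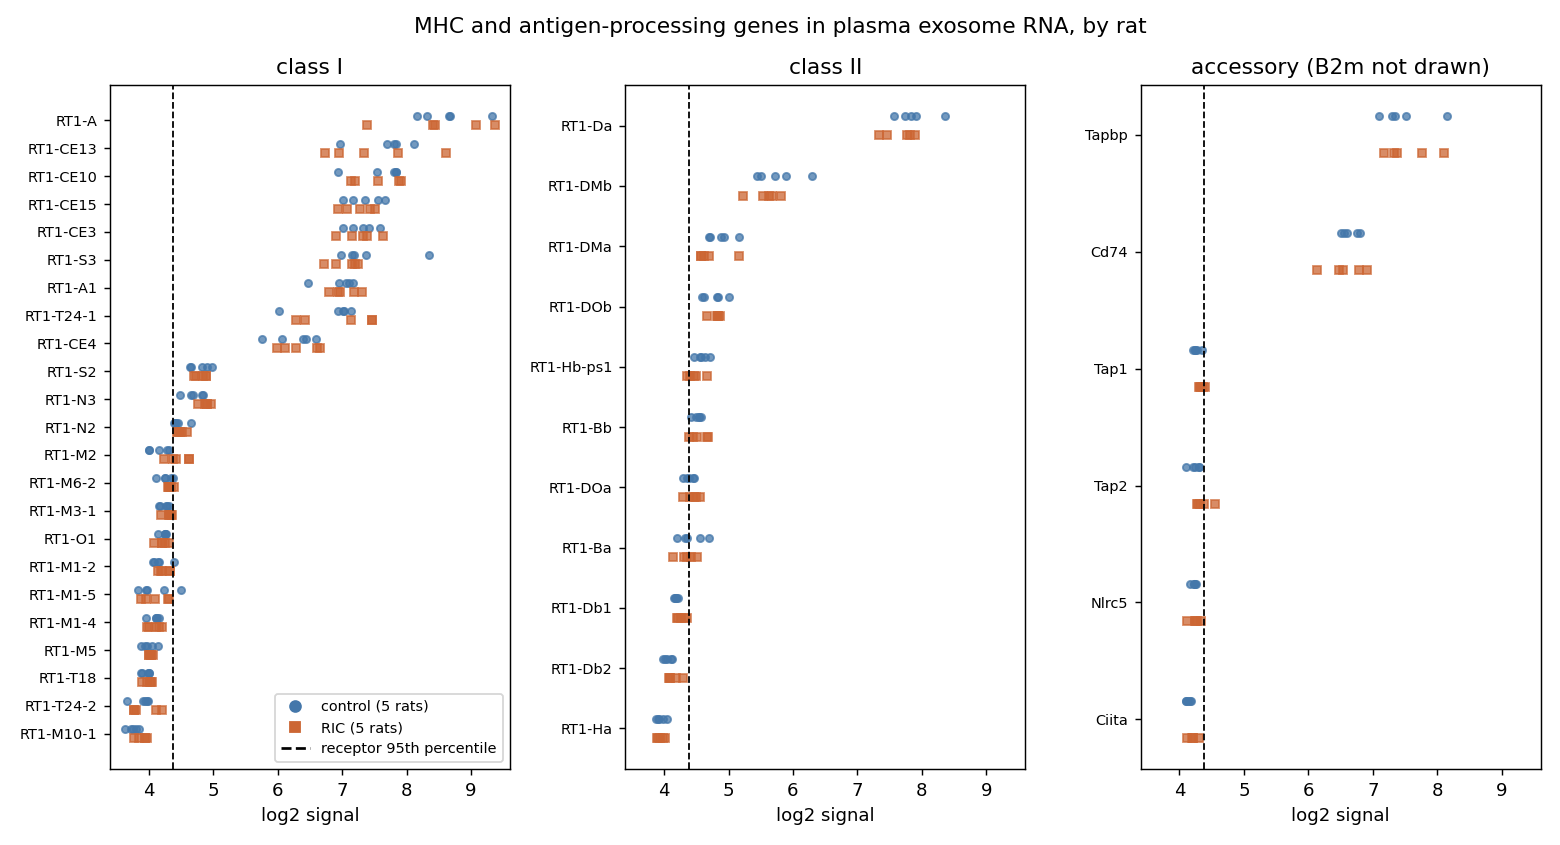
Log2 signal of each gene in each rat (points, control and RIC in separate colours) by class, with the receptor 95th percentile of 4.38 as a line. B2m, at 19.93 on every array, is not drawn, and the control and RIC points overlap for every gene.

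B2m, the light chain shared by all class I molecules, measured 19.93 on all 10 arrays. A cluster that stands at the top of the scale can show no difference between groups.

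RT1-A, a classical class I heavy chain, measured 8.66, 9.32, 8.31, 8.16 and 8.67 in control samples 1 to 5 and 8.41, 8.44, 9.37, 9.07 and 7.39 in RIC samples 1 to 5. The highest and the lowest RIC samples lay outside the control range on either side, so the groups overlapped. Their means were 8.62 ± 0.45 and 8.54 ± 0.76, a difference of -0.09 with a 95% interval from -0.92 to 0.75 (limma adjusted p 0.958). RT1-A1, the other classical symbol, measured 7.11, 7.17, 6.47, 6.95 and 7.06 in the controls and 6.94, 6.97, 7.31, 7.19 and 6.80 in the RIC rats. Control sample 3 was the lowest of all 10 and RIC sample 3 the highest. The difference for RT1-A1 was 0.09, with an interval from -0.24 to 0.42 (limma adjusted p 0.837).

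The other class I genes fell into a bright and a dim set. RT1-CE3, RT1-CE4, RT1-CE10, RT1-CE13 and RT1-CE15, of the CE region that encodes non-classical molecules, had means between 6.25 and 7.68 in the controls. RT1-S3 and RT1-T24-1 measured 7.41 ± 0.54 and 6.83 ± 0.46 there, and RT1-S2, RT1-N2 and RT1-N3 lay just above background, between 4.47 and 4.80. The 11 genes at or below background were RT1-M2, RT1-M10-1, RT1-O1, RT1-T18, RT1-T24-2 and 6 further RT1-M genes. In mouse, H2-M3, the relative of RT1-M3-1, presents N-formylated peptides, and M10 genes are expressed in vomeronasal neurons. Many class I genes are near-identical copies, so probes may read several of them, and the level of any single one is uncertain.

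The class I genes above background with the lowest differences were RT1-S3, RT1-CE13 and RT1-CE15. RT1-S3, which RefSeq also lists as H2-T23, the mouse gene of Qa-1, a ligand of an inhibitory receptor of natural killer cells, measured 7.16, 8.34, 7.37, 6.98 and 7.19 in the controls and 6.91, 7.15, 7.20, 7.24 and 6.72 in the RIC rats. Control sample 2 stood alone at the top, and the other 9 rats lay between 6.72 and 7.37. The difference was -0.36 ± 0.24 (SE), with an interval from -0.92 to 0.19 (limma adjusted p 0.578). RT1-CE13 measured 7.84, 7.80, 6.96, 7.70 and 8.11 in the controls and 7.34, 6.74, 8.61, 7.86 and 6.95 in the RIC rats, so the RIC rats held both the highest and the lowest value. RT1-CE15 measured 7.35, 7.66, 7.01, 7.17 and 7.55 against 7.27, 7.07, 7.51, 7.43 and 6.94. Both differences were within the spread, at -0.18 (interval -1.0 to 0.64) and -0.10 (interval -0.44 to 0.24), with limma adjusted p-values of 0.875 and 0.811.

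The highest differences above background were those of RT1-N3 and RT1-T24-1, followed by RT1-A1. RT1-N3 measured 4.48, 4.84, 4.66, 4.82 and 4.68 in the controls and 4.96, 4.91, 4.76, 4.91 and 4.87 in the RIC rats. Every RIC sample but the third exceeded all controls. Its means were 4.70 ± 0.15 and 4.88 ± 0.08, a difference of 0.19 ± 0.07 (SE), with an unadjusted p of 0.0276 and a limma adjusted p of 0.412. RT1-T24-1 measured 7.03, 7.02, 6.02, 6.93 and 7.14 in the controls and 7.14, 6.43, 7.47, 7.46 and 6.28 in the RIC rats. Its spread exceeded its difference of 0.13 (interval -0.56 to 0.82, limma adjusted p 0.901).

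Among the dim class I genes, RT1-M2 and RT1-M10-1 had an unadjusted p under 0.05. RT1-M2 measured 4.16, 4.01, 4.0, 4.28 and 4.32 in the controls and 4.43, 4.24, 4.63, 4.38 and 4.62 in the RIC rats. Only RIC sample 2 lay inside the control range. The means of 4.15 ± 0.15 and 4.46 ± 0.17 differed by 0.31 (interval 0.09 to 0.52, unadjusted p 0.0103, limma adjusted p 0.378). RT1-M10-1 measured 3.80, 3.64, 3.76, 3.85 and 3.73 against 3.78, 3.98, 3.94, 3.85 and 3.94, a difference of 0.14 ± 0.05 (SE) with a limma adjusted p of 0.403. All its values lay below the receptor median of 4.01.

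**Figure D2:**
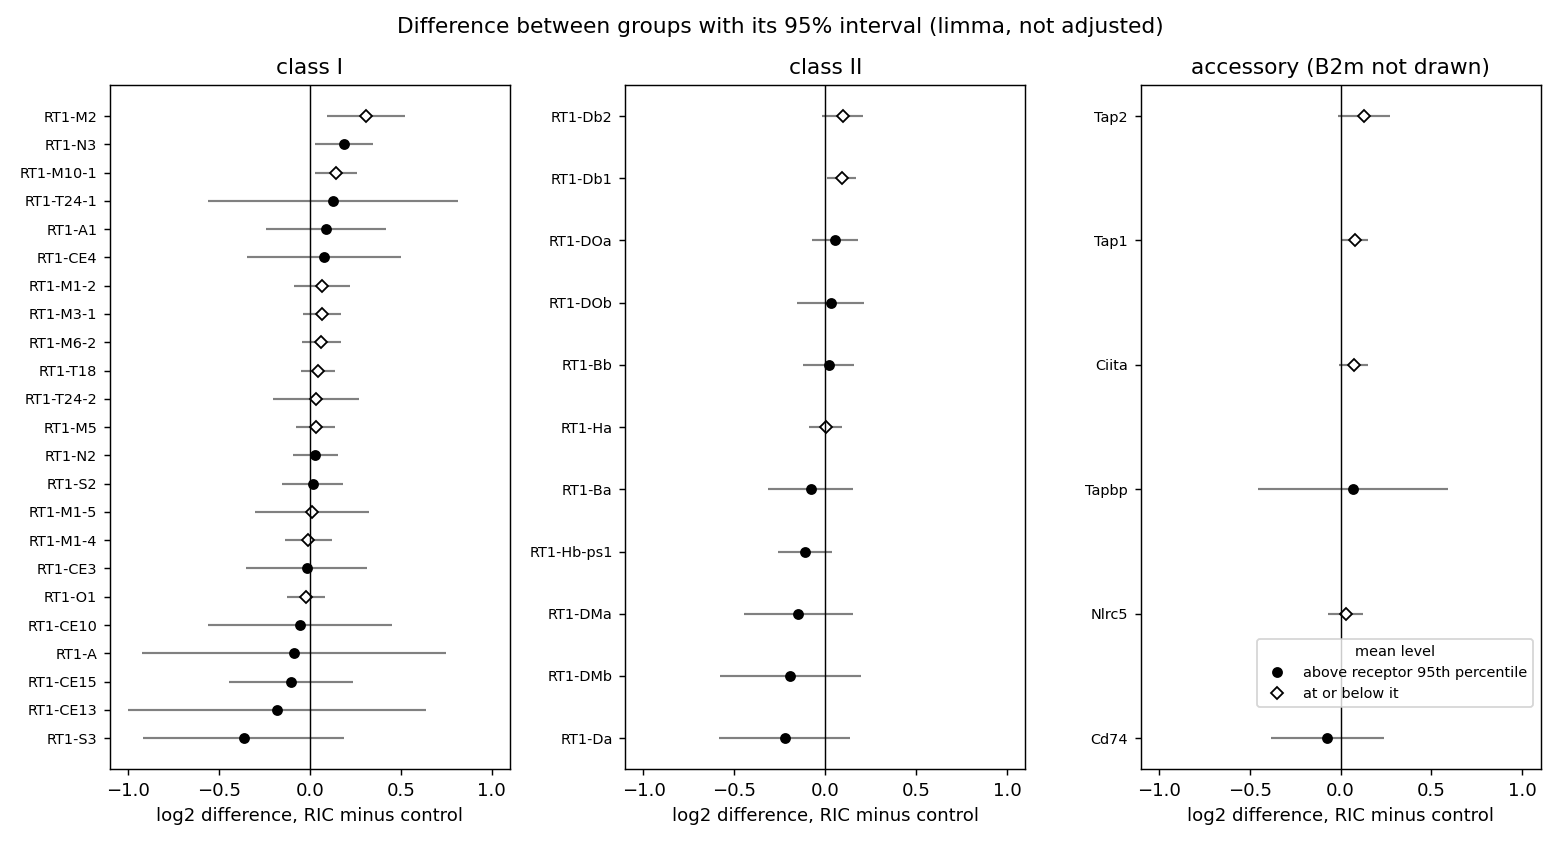
RIC minus control difference (log2) of each gene with its 95% interval from limma, not adjusted, in 3 panels for class I, class II and accessory genes. Filled symbols are genes above the receptor 95th percentile and open symbols those at or below it, and the widest intervals are those of RT1-A and RT1-CE13.

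Over the 23 class I genes the median difference was 0.032, with 15 genes higher and 8 lower in RIC. This is the median of all varying clusters, 0.032, of which 61.2% were higher and 38.2% lower. Class I genes at or below background leaned higher, as all clusters there did. Those above it were evenly split, where most clusters were lower. The 12 above background had 6 higher and 6 lower and a median of 0.00, beside a median of -0.044 for all such clusters, of which 38.7% were higher. The 11 at or below it had 9 higher and 2 lower and a median of 0.044, beside 0.054 for all such clusters, of which 71.5% were higher.

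The loading genes were at opposite ends of the scale. Tapbp (tapasin) measured 7.35, 8.15, 7.09, 7.29 and 7.52 in control samples 1 to 5 and 7.17, 7.38, 8.10, 7.76 and 7.33 in RIC samples 1 to 5. Control sample 2 and RIC sample 3 were the highest and the groups overlapped, with means of 7.48 ± 0.40 and 7.55 ± 0.38 (difference 0.07, interval -0.46 to 0.59, limma adjusted p 0.941). Tap1 and Tap2, which together form the peptide transporter, lay around the background level. Tap1 measured 4.27, 4.21, 4.25, 4.35 and 4.25 in the controls and 4.40, 4.33, 4.36, 4.31 and 4.32 in the RIC rats. Control sample 4 lay among the RIC values and the other controls below them. The Tap1 difference was 0.08 ± 0.03 (SE), with an unadjusted p of 0.0405 and a limma adjusted p of 0.435, and was -0.008 when arrays were centred on the receptor clusters.

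Tap2 measured 4.30, 4.11, 4.31, 4.25 and 4.21 in the controls and 4.38, 4.56, 4.29, 4.32 and 4.27 in the RIC rats. RIC sample 2 was the highest, and the difference was 0.13 (limma adjusted p 0.476). The other 2 clusters of Tap2 differed by -0.008 and -0.022. The activators were at background in both groups. Nlrc5 measured 4.26, 4.22, 4.16, 4.22 and 4.24 against 4.24, 4.26, 4.28, 4.12 and 4.34, and Ciita measured 4.18, 4.14, 4.16, 4.10 and 4.10 against 4.21, 4.20, 4.30, 4.12 and 4.21. Their differences were 0.03 and 0.07, with limma adjusted p-values of 0.818 and 0.483.

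Of the class II genes, RT1-Da, the alpha chain of the rat counterpart of HLA-DR, was the only one with a mean above 6. RT1-Da measured 8.36, 7.83, 7.90, 7.74 and 7.57 in the controls and 7.82, 7.89, 7.34, 7.77 and 7.46 in the RIC rats. Control sample 1 stood highest, RIC samples 3 and 5 lowest, and the groups overlapped. The means were 7.88 ± 0.30 and 7.66 ± 0.24, a difference of -0.22 ± 0.16 (SE) with an interval from -0.59 to 0.14 (limma adjusted p 0.600). The clusters of its beta chains lay at background. RT1-Db1 measured 4.21, 4.15, 4.18, 4.19 and 4.17 in the controls and 4.36, 4.21, 4.20, 4.32 and 4.26 in the RIC rats, with control sample 1 inside the RIC range. The RT1-Db1 difference was 0.09 ± 0.04 (SE), with an unadjusted p of 0.0335 and a limma adjusted p of 0.423. RT1-Db2 measured 4.06 ± 0.06 and 4.15 ± 0.09.

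Cd74, the invariant chain, measured 6.75, 6.60, 6.80, 6.55 and 6.51 in the controls and 6.79, 6.91, 6.14, 6.53 and 6.47 in the RIC rats. RIC sample 3 was the lowest and RIC sample 2 the highest. The difference was -0.07, with an interval from -0.38 to 0.24 (limma adjusted p 0.863). RT1-Ba and RT1-Bb, the chains of the counterpart of HLA-DQ, lay just above or around background. RT1-Ba measured 4.70, 4.20, 4.56, 4.32 and 4.35 against 4.51, 4.42, 4.35, 4.14 and 4.31, a difference of -0.08. RT1-Bb measured 4.55, 4.42, 4.50, 4.57 and 4.55 against 4.66, 4.51, 4.68, 4.45 and 4.38, a difference of 0.02, and its dimmer second cluster differed by -0.09 (unadjusted p 0.0491). The groups overlapped for both genes, with limma adjusted p-values of 0.784 and 0.944.

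The genes of DM, which exchanges peptides on class II, were brighter than background and lower on average in RIC without passing the test. RT1-DMb measured 5.72, 5.89, 6.29, 5.44 and 5.50 in the controls and 5.82, 5.22, 5.53, 5.68 and 5.63 in the RIC rats. RT1-DMa measured 4.69, 5.16, 4.93, 4.89 and 4.71 against 4.69, 4.58, 4.62, 5.17 and 4.58. RIC sample 4 was the highest of all rats for RT1-DMa, and the other RIC samples were at or below the lowest control. The differences were -0.19 for RT1-DMb and -0.15 for RT1-DMa (limma adjusted p 0.682 and 0.683). Second clusters of both genes differed by -0.02 and -0.12, the latter with an unadjusted p of 0.0453.

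DO, which inhibits DM, had differences of the other sign in the deposited values. RT1-DOa measured 4.29, 4.36, 4.45, 4.46 and 4.39 against 4.29, 4.56, 4.46, 4.41 and 4.50, a difference of 0.05. RT1-DOb measured 5.00, 4.82, 4.59, 4.62 and 4.84 against 4.66, 4.82, 4.83, 4.84 and 4.87, a difference of 0.03. Both were within the spread of the rats (limma adjusted p 0.719 and 0.918), and their sign depended on the scaling. With arrays centred on their medians RT1-DOa and RT1-DOb differed by -0.01 and -0.034, lower in RIC as DM was. With arrays centred on the receptor clusters they differed by -0.032 and -0.056. RT1-Hb-ps1, a pseudogene of the counterpart of HLA-DP, measured 4.57, 4.46, 4.64, 4.72 and 4.56 against 4.50, 4.36, 4.66, 4.41 and 4.47. Its difference was -0.11 (limma adjusted p 0.539), and that of RT1-Ha, which lay below the receptor median, was 0.002.

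Over the 11 class II genes the median difference was 0.002, with 6 higher and 5 lower, beside 61.2% higher among all varying clusters. The 8 above background had 3 higher and 5 lower and a median of -0.095, beside 60.7% lower and a median of -0.044 for all such varying clusters. The 3 below it were all higher, where 71.5% of all varying clusters at or below background were higher. The 6 accessory genes that varied had a median of 0.07, with 5 higher and only Cd74 lower. Of the 6, the 4 at or below background were all higher, beside the same 71.5%. Direction depended on how arrays were scaled. Of the clusters with an unadjusted p under 0.05, 71.6% were higher in RIC as deposited, 26.8% with arrays centred on their medians, 49.1% with quantile normalization repeated, 47.8% with the trend of each array over level removed, and 14.5% with arrays centred on the receptor clusters. The class I median moved from 0.032 to -0.032, 0.0078, 0.018 and -0.054 in the same order. The class II median moved from 0.002 to -0.062, -0.0246, -0.052 and -0.084, and the accessory median from 0.07 to 0.006, 0.0397, 0.044 and -0.016. Of the 5 genes with an unadjusted limma p under 0.05, RT1-M2, RT1-N3, RT1-M10-1 and RT1-Db1 were higher in RIC under each of these scalings. Only RT1-N3 of them lay above background. The other scalings each turned the sign of 12 to 18 of the 40 varying genes. Without control sample 3 the class I median was -0.023, and without control samples 1 and 2 it was 0.084, with 20 genes higher and 3 lower. Leaving out both controls turned the sign of 8 of the 40 varying genes, RT1-A among them, from -0.09 to 0.16. It moved RT1-Da from -0.22 to -0.08, RT1-S3 from -0.36 to -0.14 and Tapbp from 0.07 to 0.25. RT1-A1 moved from 0.09 to 0.22 and RT1-DOb from 0.03 to 0.12, and the lowest limma adjusted p over the genes was then 0.714.

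**Figure D3:**
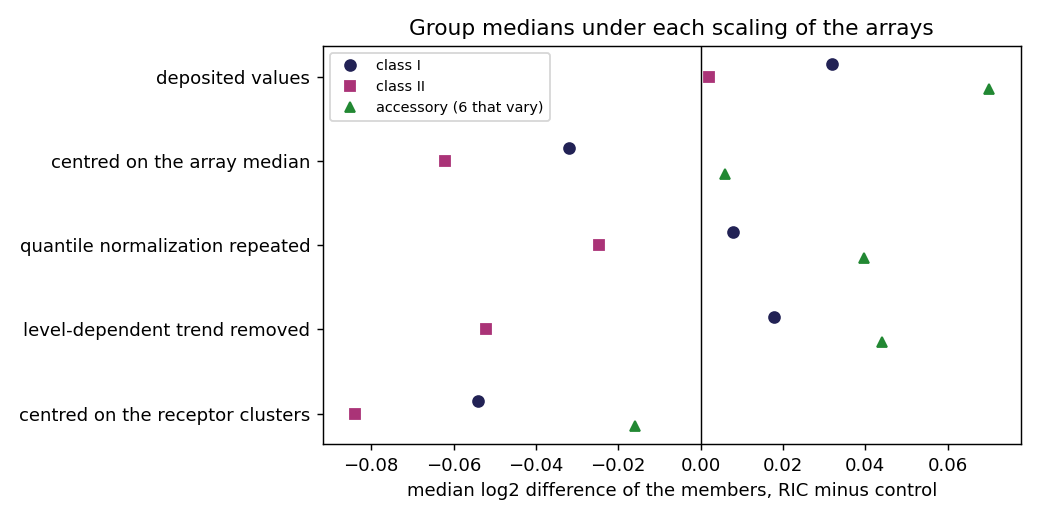
Median RIC minus control difference (log2) over the class I, class II and accessory genes under 5 scalings of the arrays. The class I median runs from 0.032 in the deposited values to -0.054 after centring on the receptor clusters, and the class II median from 0.002 to -0.084.

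In the bright class I genes the rats of each group varied widely, and the genes varied together. For this description, made after the values were seen, the 9 class I genes with a mean above 6 were taken: RT1-A, RT1-A1, RT1-S3, RT1-T24-1 and the 5 RT1-CE genes. Control sample 3 was the lowest control in 7 of the 9, against 29.9% of all 6187 varying clusters above 6, and RIC sample 5 the lowest RIC rat in 7 of the 9, against 34.4%. RIC sample 3 was the highest RIC rat in 6 of the 9, against 19.5%. Averaged over the 9 genes, control samples 1 to 5 deviated from each gene's mean by 0.11, 0.38, -0.43, -0.12 and 0.21, and RIC samples 1 to 5 by -0.06, -0.28, 0.43, 0.28 and -0.51. High and low rats were thus found in both groups. Under each of the 4 other scalings control sample 3 was again lowest in 7 of the 9, RIC sample 5 in 6 or 7, and RIC sample 3 highest in 5 to 9. The 9 clusters may share probes and are not independent.

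The 5 clusters above background that carry several RT1 symbols had the same rats at the ends, but they are not an independent check. Their symbols include RT1-A1 and RT1-CE4, which are among the 9 genes, and they may share probes with the 9. Control sample 3 was the lowest control and RIC sample 5 the lowest RIC rat in 5 of 5, and RIC sample 3 was the highest RIC rat in 5 of 5. The cluster of RT1-T24-3 and RT1-T24-4 measured 9.24, 9.24, 8.08, 9.24 and 9.24 in the controls and 9.24, 8.90, 9.41, 9.29 and 7.99 in the RIC rats. Control sample 3 and RIC sample 5 stood about 1 unit below the rest of their groups. Tapbp had its lowest control in sample 3 and its highest RIC value in sample 3 as well. Its lowest RIC value was in sample 1, at 7.17, while RIC sample 5 stood at 7.33. RT1-Da and Cd74 had another order in the deposited values: averaged over both, RIC sample 3 was the lowest rat at -0.45 and control sample 1 the highest at 0.37, while control sample 3 stood at 0.16. That order depended on the scaling: with quantile normalization repeated, control sample 2 was the lowest at -0.40, RIC sample 3 stood at -0.30 and control sample 3 at -0.02. Whether RT1 haplotype moves with this order was not tested, as haplotypes are not given.

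**Figure D4:**
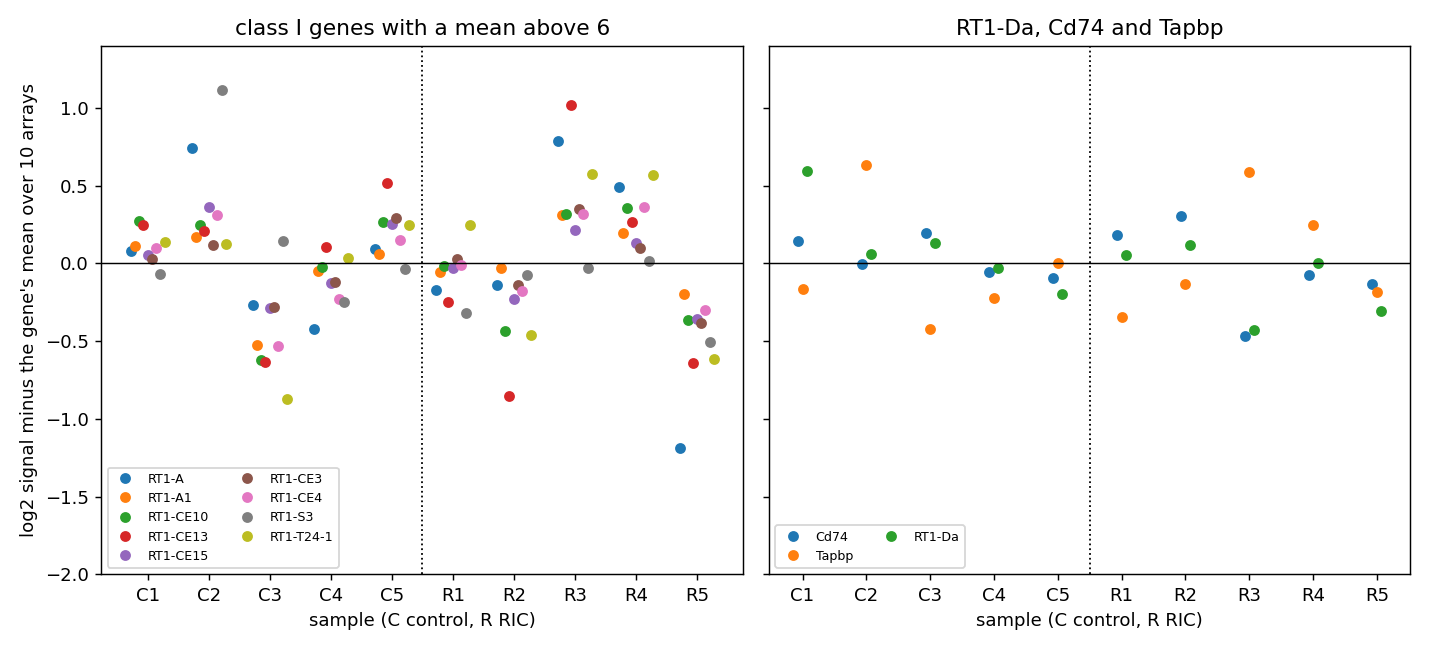
Log2 signal minus the gene's mean over 10 arrays, by rat (C control, R RIC, points coloured by gene), for the 9 class I genes with a mean above 6 (left) and for RT1-Da, Cd74 and Tapbp (right). Most class I points lie low in C3 and R5 and high in R3, whereas RT1-Da and Cd74 lie low in R3 in these deposited values.

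Other genes of antigen presentation were lower in RIC more often than higher, and none passed the adjusted threshold. Of 44 genes with a role in peptide supply, class II processing, transcriptional control or class I-like molecules, 32 were lower and 11 higher, with a median of -0.105. Of them 40 lay above background, where 60.7% of all varying clusters were lower. At an unadjusted p under 0.05, 6 were lower and 0 higher, where 7.33% of all clusters above background were lower. By role, 1 of 14 genes on the class I side, 2 of 11 on the class II side, 3 of 13 of transcriptional control and 0 of 6 class I-like genes were among these. Beside this count, 5 of 5 endothelial markers were lower on average in RIC (median -0.574, with Pecam1 at 11.32 and 10.22) and 5 of 5 varying exosome genes were lower (median -0.332), whereas 3 of 3 varying erythroid markers were higher (median 0.936). RIC sample 4 was the highest of all 10 rats in each of these 3 erythroid markers, at 15.23 for Alas2, 12.36 for Ahsp and 9.64 for Slc4a1. The part of the endothelial, exosome and erythroid markers in the count was not tested.

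Ifngr2, a chain of the interferon gamma receptor, measured 5.55, 5.33, 5.26, 5.07 and 5.11 in the controls and 4.92, 4.94, 4.86, 5.02 and 4.95 in the RIC rats. All RIC values lay below all controls, and the difference was -0.33 ± 0.09 (SE), with a limma adjusted p of 0.356. The groups were apart in 1 of the 44 genes, beside 1.81% of all clusters above background. Jak2, a kinase of that receptor, measured 10.94, 11.20, 10.26, 9.84 and 9.80 against 9.37, 9.62, 9.77, 9.85 and 8.13, a difference of -1.06 (limma adjusted p 0.411). Control sample 4 and RIC sample 4 met at about the same value. On the same list, Ifngr1 and Jak1 differed by -0.08 and -0.38, with unadjusted limma p-values of 0.601 and 0.208. Ctsd, the lysosomal protease cathepsin D, measured 9.19 ± 0.46 and 8.32 ± 0.55, a difference of -0.87 (limma adjusted p 0.398). Lnpep, an aminopeptidase that trims peptides in endosomes, measured 8.39 ± 0.46 and 7.59 ± 0.47, a difference of -0.80 (limma adjusted p 0.395). Sppl2a, the protease that clears the remnant of the invariant chain from membranes, measured 5.86 ± 0.19 and 5.56 ± 0.14, and Nfyc, a subunit of the factor that binds the Y box, 5.37 ± 0.08 and 5.23 ± 0.11. The groups of the last 4 overlapped, with limma adjusted p-values of 0.398 for Sppl2a and 0.439 for Nfyc.

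Markers of cells that express class II were partly present. Of 7 B cell markers, 6 were above background, with a sample median of 4.80 to 5.11 in the controls and 5.09 to 5.24 in the RIC rats. Of the 7, 5 were higher in RIC on average, beside 38.7% of all varying clusters above background and 61.2% of all varying clusters. Unadjusted limma p-values were under 0.05 for Pax5, at 5.32 and 5.64, and Cd79b, at 5.00 and 5.17. Their limma adjusted p-values were 0.352 and 0.411. Of all clusters above background 3.95% were called higher, and of all clusters 7.97%. The brightest of the 7 were lower in RIC: Cd79a, a chain of the B cell receptor, measured 7.54 and 7.29, and Cr2 7.13 and 6.87. Ms4a1 (CD20) measured 4.39 and 4.41, just above background. Of 7 dendritic cell markers, 3 were above background, Itgax at 9.03 and 8.84 among them, whereas Flt3 and Xcr1 were near 4. Of 7 monocyte and macrophage markers, 5 were above background, with sample medians of 5.27 to 5.61 and 5.38 to 5.62. Their part in the class II values was not tested.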

How the data were processed

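The authors deposited 1 table of log2 values, 1 column per rat and 1 row per transcript cluster, for which the submitters' processing notes name Affymetrix Expression Console. The sources used here give no version, summarisation, normalization or genome build, and do not say what set the ceiling of 19.93, so differences of the brightest clusters may be compressed. Flat values were not confined to the top: 226 clusters held a constant value below the ceiling on all arrays, Hbb at 7.63 among them. Gene symbols came from the platform annotation, and 40 of the 41 genes matched RefSeq by gene number. The deposited log2 values were used without further scaling or filter. The 5 RIC and 5 control rats were compared over all 68842 clusters by limma 3.58.1 (lmFit, eBayes) under R 4.3.3, with Benjamini-Hochberg adjustment and a threshold of 0.05. This step was first tested on simulated data. No set test was run. The genes, lists and tests were chosen with earlier results of these data known.

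Values per rat were given for each accessory gene, each class II gene above background, the RT1-A genes, each gene with an unadjusted p under 0.05, and the 3 highest and 3 lowest differences of class I genes above background. Of the other pathway genes, those with an unadjusted p under 0.05 were named. Alternatives were 4 other scalings, 2 filters on dim clusters, another variance model, array weights, a replicate block, left-out rats and other clusters of a gene. Same-numbered rats deviated together with correlations from -0.0485 to 0.176, so the numbers were not taken to pair them. Promoters were aligned globally with Biopython 1.88. The number of arrays limits the precision.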

Additional observations from a re-analysis of the deposited data

Results flagged for a closer look

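In 10 of 80 groups of 5 values, 1 rat stood far from the other 4, with its gap to the nearest above 0.71 of the group's range, which chance gives in about 1 of 20 groups. RT1-S3 measured 8.34 in control sample 2, where the next control had 7.37. RT1-T24-1 measured 6.02 in control sample 3, where the next had 6.93. Control sample 3 was also apart for RT1-M1-4, at 3.96 below 4.12, and for RT1-O1, at 4.14 below 4.25. RT1-N2 measured 4.65 in control sample 2, above 4.46. RT1-M1-2 measured 4.40 in control sample 1, above 4.16, and RT1-T24-2 measured 3.67 in control sample 5, below 3.91. Among RIC rats, RT1-DMa measured 5.17 in sample 4, above 4.69, and RT1-DOb measured 4.66 in sample 1, below 4.82. RT1-M3-1 measured 4.19 in RIC sample 3, below 4.32.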

How the results depend on the processing

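In every setting 0 of all clusters passed the adjusted threshold in limma (lowest adjusted p 0.125, without control sample 2), beside 7665 with an unadjusted p under 0.05. That count was 3721 and 2392 with the filters at the median of all clusters and at the receptor 95th percentile, which leave fewer clusters, and 4750 without control samples 1 and 2. The 5 genes with an unadjusted p under 0.05 became 2, 3, 2 and 2 with arrays centred on the median, quantile normalized again, freed of the level trend or centred on the receptors. They became 1 with the receptor filter, which leaves out RT1-M2, RT1-M10-1, RT1-Db1 and Tap1 by their level. The count was 3 with the trended variance, 3 with the replicate block and 2 without control samples 1 and 2. With 1 rat left out it was 2 to 6. It was 2 without control sample 3 or 5 or RIC sample 1 or 2, and 3 without control sample 2. The class II median of 0.002 was -0.084 with receptor centring and -0.08 and -0.095 with the filters. The filters keep 9 and 8 of the 11 class II genes and leave their differences unchanged. The accessory median of 0.07 was 0.006 with median centring, -0.016 with receptor centring and -0.003 with the receptor filter, which keeps 2 of the 6 varying genes. Tap1 turned to -0.008 with receptor centring, and RT1-Bb was -0.09 in its second cluster. A sign change was counted as a reversal only where the unadjusted p was under 0.05 in either setting. Uncalled differences changed sign in 120 of 781 comparisons of a gene and a setting. These comparisons include the filters, the trended variance and the replicate block, which leave each difference as it was. The replicate block changed no adjusted call. Apart from the constructions named, the causes were not tested. The array gives no depth, and 18 of the 41 genes lay at or below background, where differences cannot be told from background shifts.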
